A study of Mus musculus with 2 samples.

Results

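The 10 genes of the classical MHC class I pathway described here were the heavy chains H2-K1 and H2-D1, the light chain B2m, the peptide loading genes Tap1, Tap2 and Tapbp, the activator Nlrc5 and the immunoproteasome subunits Psmb8, Psmb9 and Psmb10. They were taken by symbol from the 55450 genes of the count matrices, with 1 gene identifier for each. All 10 had unique molecular identifiers (UMIs, the tags that mark each captured transcript) in the tumor-like cells of both libraries. The data are single-cell RNA sequencing of EMT6 tumors by the 10× Genomics 3′ method, in 2 libraries. The tumors were grown from 200000 cells of EMT6, a mammary carcinoma line of BALB/c mice, placed under the skin of immunocompetent BALB/c mice. Both groups received the PRMT5 inhibitor LLY-283 (LLY283 in the sample labels) at 50 mg/kg, with 3 days on and 4 days off, and the PARP inhibitor Olaparib at 50 mg/kg daily. The Combo group also received 200 µg of anti-PD-1 antibody every 3 days. Each library was 1 pool of tumors from 3 mice, and no untreated tumors are among the samples, so that group, pool and library cannot be told apart. No test was therefore made, and no value below has a spread over replicates.

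MHC class I molecules show peptides from inside the cell to CD8+ T cells. The proteasome cuts proteins into peptides, the Tap1 and Tap2 transporter carries these into the endoplasmic reticulum, and Tapbp (tapasin) bridges the transporter to new class I molecules, each made of a heavy chain and B2m. Interferon-gamma raises the transcription of most genes of this pathway, and loss of the pathway is a known way for tumor cells to escape T cells.

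By position in the mm10 build (GENCODE M21), 7 of the 10 genes lie on chromosome 17. Their order there is Tapbp (33915899 to 33929292), H2-K1 (33996017 to 34000347), Psmb9 (34181987 to 34187764), Tap1 (34187553 to 34197225), Psmb8 (34197721 to 34201454), Tap2 (34203527 to 34216321) and H2-D1 (35262730 to 35267499). B2m lies on chromosome 2 (122147686 to 122153083), and Nlrc5 (94434356 to 94527272) and Psmb10 (105935735 to 105938444) lie on chromosome 8. Tap1 and Psmb9 are read away from each other from starts 226 bases apart in RefSeq.

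The promoter bases below are shown for the heavy chains and B2m, the chains of the class I molecule itself, to give the letters of interferon response sites near their starts. Their part in the levels reported here was not tested. They come from RefSeq promoter windows of GRCm38.p6, each with 250 bases before the start, and 8 of the 10 genes had a window. Each line runs 5′ to 3′ on the gene's own strand. In H2-K1 and H2-D1 the capitals mark the NF-κB-like motif GGGGATTCC and the letters of TTTCNNTT, which is the interferon response core AANNGAAA read on the other strand, and in B2m they mark AANNGAAA itself.
H2-K1, chr17:34000429-34000458, minus strand: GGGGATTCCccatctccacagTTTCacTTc
H2-D1, chr17:35262923-35262952, plus strand: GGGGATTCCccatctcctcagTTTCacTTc
B2m, chr2:122147538-122147567, plus strand: ataagaacatgaAActGAAAatgggaaagt
The H2-K1 and H2-D1 stretches differed at 1 of 30 positions, A18T, counted from the first base shown, with H2-K1 first. With both strands searched, GGGGATTCC was found in the 250 upstream bases of 70 of 32851 windows (0.213%) and AANNGAAA in 21.3%. The motifs do not overlap each other in these stretches, and among the 8 genes with a window AANNGAAA was in these 3 alone and GGGGATTCC in the heavy chains alone.

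All 3 genes also held the letters of a cyclic AMP response core and an inverted CCAAT box at the same spacing, shown here as what the heavy chains and B2m share. The capitals mark TGACG and ATTGG, which stand 20 bases apart.
H2-K1, chr17:34000359-34000388, minus strand: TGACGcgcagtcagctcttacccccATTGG
H2-D1, chr17:35262993-35263022, plus strand: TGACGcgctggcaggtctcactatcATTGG
B2m, chr2:122147609-122147638, plus strand: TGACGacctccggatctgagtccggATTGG
This spacing was found in 30 of 32851 windows (0.0913%), and among the 8 genes with a window in these 3 alone. TGACG by itself was in the windows of 5 of the 8 and in 17.8% of all windows, and CCAAT in 6 of the 8 and in 33.8%. A match of letters is a description and does not show that a factor binds there. The H2-D1 gene of GENCODE M21 begins before both of its stretches, which lie upstream of the RefSeq start. The reference is of C57BL/6J mice, which carry the H2-b haplotype, while BALB/c mice carry H2-d. The bases in EMT6 cells may therefore differ, and reads of the BALB/c heavy chains, H2-L among them, can fall on H2-K1, H2-D1 or a near-identical class I gene, so that the split between heavy chain genes is uncertain.

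The LLY-283 + Olaparib library held 16115 cells and 147214934 UMIs, and the Combo library 7542 cells and 162522700 UMIs. After filters, 13974 and 5672 cells were clustered without the MHC and interferon genes, and clusters were named from marker UMIs. In the Combo library 21.0% of cells were left out for a high share of mitochondrial UMIs, against 0.534%, and 39 barcodes occurred in both libraries. Tumor-like cells numbered 9995 and 2228 in 9 clusters, and their median depth was 8865 and 51592 UMIs per cell. They held UMIs of 8 of 8 tumor markers in both libraries. A cluster named from fibroblast markers held UMIs of all 8 as well, so this count does not set tumor-like cells apart. Their name rests on keratin level and on the other rules given under processing. Levels are given as CPM, the UMIs of a gene scaled by all UMIs of the class, a measure that counts 1 tag per transcript. CPM are compared here between cells and libraries. UMIs of different genes are set against each other only for the light and heavy chains and for the proteasome subunits. Brackets hold exact 95% intervals, which hold the counting error alone, without the spread between mice.

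Over all tumor-like cells the heavy chains were at nearly the same level in both libraries, the light chain was lower in the Combo library and the immunoproteasome subunits were higher. None of these statements held at every depth per cell. Among cells of 20000 to 30000 UMIs, B2m was higher in the Combo library, with a log2 ratio of 0.45. Psmb8 and Psmb10 differed by -0.03 and 0.02 there. The heavy chains were higher in the Combo library in the same cells, with log2 ratios of 0.60 for H2-K1 and 0.64 for H2-D1. Psmb9 was lower in the Combo library among cells of 10000 to 20000 UMIs, with a log2 ratio of -0.27. H2-K1 was at 1276 CPM in the LLY-283 + Olaparib library and 1383 in the Combo library, a log2 ratio of 0.12 [0.11 to 0.13]. H2-D1 was at 1824 and 2002 CPM, a log2 ratio of 0.13 [0.13 to 0.14]. B2m, without which heavy chains do not reach the cell surface in stable form, was at 1959 and 1576 CPM, a log2 ratio of -0.31 [-0.32 to -0.30]. B2m was thus the only one of the 10 genes below its level in the LLY-283 + Olaparib library. Across all 9551 genes with at least 1000 UMIs the median log2 ratio was 0.06, and B2m stood at percentile 3.68 of these genes while H2-K1 and H2-D1 stood at 62.6 and 66.1.

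Among the loading genes, Tap1 had 51.7 CPM in the LLY-283 + Olaparib library and 56.6 in the Combo library, a log2 ratio of 0.13 [0.08 to 0.18]. Its partner Tap2 had 50.3 and 63.3 CPM, a log2 ratio of 0.33 [0.28 to 0.38]. Tapbp had 144.5 and 173.2 CPM, a log2 ratio of 0.26 [0.23 to 0.29]. All 3 were higher in the Combo library, Tap2 the most. Nlrc5, a transactivator of class I genes, had 15.3 and 15.8 CPM, and its log2 ratio of 0.04 [-0.05 to 0.14] held 0 within counting error.

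The immunoproteasome subunits are inducible by interferon and replace 3 constitutive catalytic subunits. Psmb8 had 630.4 CPM in the LLY-283 + Olaparib library and 792.6 in the Combo library, a log2 ratio of 0.33 [0.32 to 0.34]. Psmb9 had 160.1 and 190.8 CPM, a log2 ratio of 0.25 [0.22 to 0.28]. Psmb10 had 184.9 and 255.1 CPM, a log2 ratio of 0.46 [0.44 to 0.49]. Psmb10, 1.38-fold higher, was the only 1 of the 10 genes past a fold of 1.3 in either direction, where 5.85% of all genes tested were past it upward and 2.41% downward. Tap2 and Psmb8 stood at percentiles 91.8 and 91.6 and Psmb10 at 96.9. Over the 10 genes the median log2 ratio was 0.19, and 9 were higher, 8 of them with an interval above 0. A ratio above 0 was common among all genes, since Nlrc5, at 0.04, stood at percentile 45.9. The shares of all genes above 0 and with an interval above 0 are not given here.

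The tumor-like cells were not made of the same clusters in both libraries. The cluster led by Il24, a cytokine gene, held 196 and 535 cells, and the largest cluster of the LLY-283 + Olaparib library held 1784 and 60. The ratios were therefore also taken within each of the 9 clusters. B2m was lower in the Combo library in 9 of 9 clusters, with log2 ratios from -0.49 to -0.01 and an interval below 0 in 8. Psmb8 and Psmb10 were higher in 9 of 9, with medians of 0.18 and 0.20 and an interval above 0 in 8 clusters each. Among the class I genes described here, these 3 alone had the same direction in every cluster. No share over all genes stands beside this count. Within a cluster the cells of the libraries were not matched for depth. For these 3 genes the direction over all tumor-like cells did not hold at every depth, as given above. H2-K1, Tap2 and Tapbp were higher in 7 clusters, H2-D1 and Psmb9 in 6, Tap1 in 4 and Nlrc5 in 3. With the cluster led by Il24 left out, the log2 ratio of Psmb10 was 0.27, and with equal weight for every cluster it was 0.23, both short of the fold of 1.3.

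**Figure D1:**
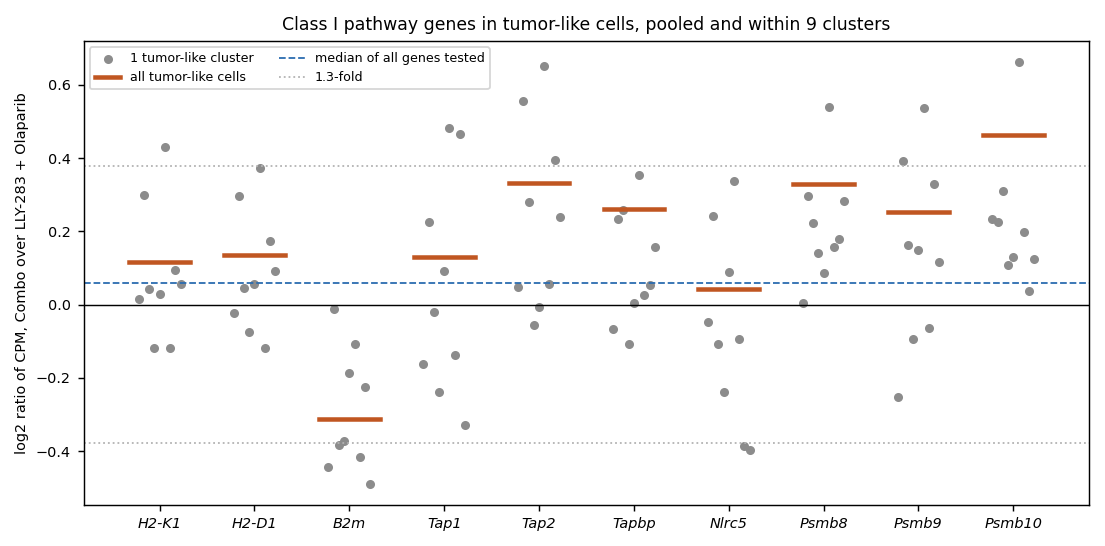
The log2 ratio of CPM, Combo over LLY-283 + Olaparib, is plotted for each of the 10 genes, with 1 point for each of the 9 tumor-like clusters and a mark for all tumor-like cells. All points of B2m lie below 0 and all points of Psmb8 and Psmb10 above it, while those of the other genes lie on both sides.

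Among the clusters, Psmb10 varied the most. It was 3.92-fold higher in its highest than in its lowest cluster in the LLY-283 + Olaparib library and 3.66-fold in the Combo library. In both libraries the highest was the cluster led by Il24, at 336 and 367 CPM, and the lowest the cluster led by Adm and Pgf, at 85.8 and 100.2 CPM. Both Adm and Pgf are genes that respond to low oxygen. In the cluster led by Adm and Pgf, Psmb8, Tap2, Tapbp, H2-K1 and H2-D1 were also at their lowest in both libraries, with H2-K1 at 963.6 and 1185 CPM and H2-D1 at 1385 and 1701 CPM. The heavy chains were highest in both libraries in the cluster led by Fam89a and Cthrc1, with H2-K1 at 1669 and 1538 CPM. Their range across clusters was narrower than that of Psmb10, 1.73-fold and 1.297-fold for H2-K1. B2m did not keep its order, since the cluster led by Adm and Pgf was its highest in the Combo library, at 1955 CPM.

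Depth per cell moved with several of these levels. In the LLY-283 + Olaparib library, tumor-like cells of 1000 to 5000 UMIs had 2413 CPM of H2-D1, 2535 of B2m and 1607 of H2-K1. Cells of 20000 to 30000 UMIs had 1699.6 CPM of H2-D1, 1755 of B2m and 1207 of H2-K1. Psmb8 did not follow these 3 genes, with 604.2 and 676.2 CPM in the same ranges. In the Combo library B2m was at 2392 CPM in cells of 20000 to 30000 UMIs and at 1437 in cells of 50000 to 100000. B2m was thus higher in shallower cells of either library.

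Cells of 20000 to 30000 UMIs numbered 669 and 130 in the LLY-283 + Olaparib and Combo libraries, with median depths of 23259 and 25714.5 UMIs. B2m was at 1755 and 2392 CPM in them, a log2 ratio of 0.45, and H2-D1 at 1699.6 and 2656, a log2 ratio of 0.64. H2-K1 had a log2 ratio of 0.60 and Tap2 of 1.02. Psmb8 and Psmb10 did not keep their higher level, with log2 ratios of -0.03 and 0.02. Of the 10 genes, 7 were past a fold of 1.3 upward, where 23.4% of 9168 genes were past it upward and 18.4% downward, and the median log2 ratio was 0.43 over the 10 and 0.04 over all.

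Cells of 30000 to 50000 UMIs numbered 219 and 778, with median depths of 34555 and 41746.5. All 10 genes were higher in the Combo library in this range, 9 of them with an interval above 0. The median log2 ratio was 0.37 over the 10 and 0.06 over all genes, and the share of all genes above 0 is not given. B2m had 1764 and 1863 CPM, a log2 ratio of 0.08, and the log2 ratios of H2-D1, H2-K1, Psmb10 and Psmb8 were 0.59, 0.35, 0.38 and 0.33. Past the fold of 1.3 were 5 of the 10 genes, against 20.5% of 10527 genes upward and 10.8% downward. The direction of B2m between the libraries, and the size of the heavy chain ratios, therefore differed with the depth of the cells compared. In cells of 10000 to 20000 UMIs, 3362 and 67 in number, Psmb8, Psmb9 and Psmb10 were lower in the Combo library, with log2 ratios of -0.13, -0.27 and -0.28 and intervals below 0, and B2m was higher, with 0.32. The ranges below 20000 UMIs held at most 67 Combo cells each, and that of 50000 to 100000 held 18 cells of the LLY-283 + Olaparib library. The part of depth, and of what makes a cell deep, in the library ratios was not tested.

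**Figure D2:**
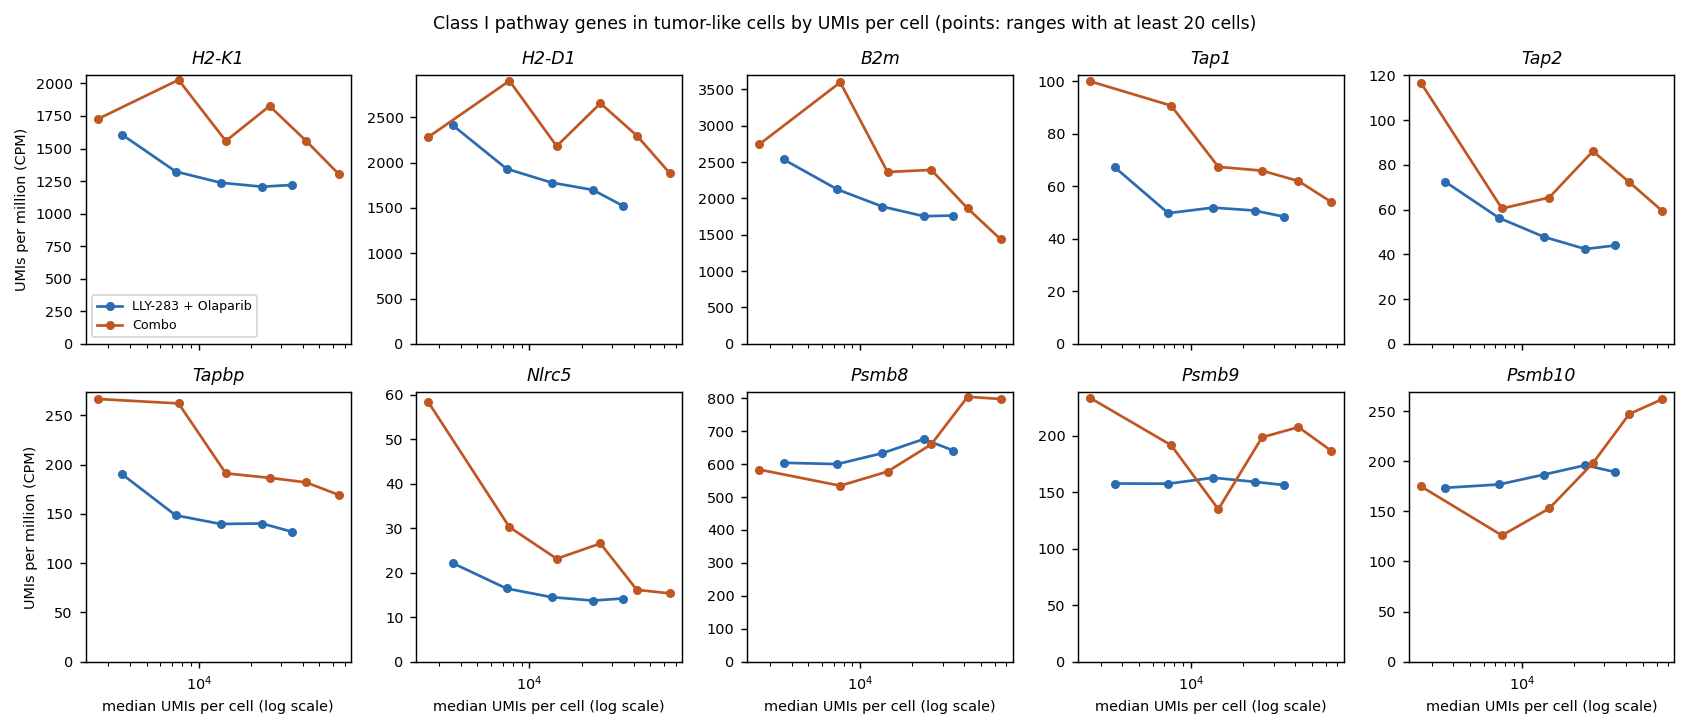
The level of the 10 genes in CPM is plotted against the median number of UMIs per cell (log axis) in ranges of depth, for the tumor-like cells of both libraries, with a point where a range held at least 20 cells. H2-K1, H2-D1 and B2m are lower in the deepest than in the shallowest range in both libraries, and at 20000 to 50000 UMIs the Combo points of these 3 genes lie above those of the LLY-283 + Olaparib library.

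The light chain was also set against the heavy chains directly, a ratio in which the total of UMIs cancels. Tumor-like cells had 63.2 UMIs of B2m for every 100 of H2-K1 and H2-D1 together in the LLY-283 + Olaparib library and 46.6 in the Combo library. In the ranges of depth from 1000 to 50000 UMIs this ratio stayed between 60.4 and 65.2 in the LLY-283 + Olaparib library. In the Combo library it was 68.4, 72.9 and 63.2 in the 3 ranges below 20000 UMIs, 53.4 and 48.3 in the next 2 and 45.1 above 50000. The ratio was thus lower in the Combo library in the ranges from 20000 UMIs on, within which the Combo cells were also deeper by their median. The Combo cells were deeper by their median in the ranges of 5000 to 10000 and 10000 to 20000 UMIs as well. There the ratio was higher in the Combo library, at 72.9 against 65.2 and at 63.2 against 62.6. H2-K1 made up 41.2% and 40.9% of the heavy chain UMIs over all tumor-like cells. Within the ranges of depth the heavy chains were less alike, with log2 ratios of 0.35 for H2-K1 and 0.59 for H2-D1 at 30000 to 50000 UMIs.

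Detection was also compared at an equal number of UMIs drawn per cell, as the percentage of cells with a UMI. Each tumor-like cell was thinned to 1000 UMIs, which kept 9946 and 2215 cells. Thinning does not match the cells themselves, since the tumor-like cells of the libraries had median depths of 8865 and 51592 UMIs. These shares are therefore no comparison of cells alike in depth. H2-K1 was then found in 70.0% [69.1 to 70.9] of cells of the LLY-283 + Olaparib library and 72.8% [70.9 to 74.6] of Combo cells. B2m was found in 85.4% [84.7 to 86.1] and 78.1% [76.3 to 79.8]. Psmb8 was found in 44.7% [43.7 to 45.6] and 51.9% [49.8 to 54.0], and Psmb10 in 15.9% [15.2 to 16.6] and 21.0% [19.3 to 22.7]. The intervals lay apart upward for 4 genes, H2-D1, Psmb8, Psmb9 and Psmb10, and downward for B2m alone. They rest on the number of cells, and cells are not replicates, so they hold no spread between mice. For such counts of genes, with or without thinning, no share over all genes is given. Without thinning, 8 genes had a higher share in the Combo library with intervals apart and none a lower one, and Tap1 went from 37.5% to 85.8% where the thinned shares were 5.25% and 5.69%.

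Nearly every tumor-like cell with at least 5000 UMIs had UMIs of the heavy chains. With each of these cells thinned to 5000 UMIs, the median cell had 15 UMIs of H2-K1 and H2-D1 in the LLY-283 + Olaparib library and 17 in the Combo library. From the 5th to the 95th percentile the cells held 6 to 29 and 7 to 33 UMIs. A cell with none was found 2 times among 8097 cells and 0 times among 2171. No class here was taken as one without these genes, so the share that free RNA gives was not measured. A UMI in a cell therefore does not show that the cell expresses the gene. Across cells, H2-K1 and H2-D1 had a Pearson correlation of 0.52 and 0.55, given as a description of cells that share a library and, in part, reads of near-identical sequence.

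The levels in other cell types were taken for 7 further classes with at least 20 cells in each library. These were macrophage or monocyte-like (1065 and 696 cells), neutrophil-like (660 and 1412), dendritic cell (DC)-like (49 and 46), T or NK-like (81 and 60), cancer-associated fibroblast (CAF)-like (240 and 64), osteoclast-like (73 and 27) and myogenic-like cells (45 and 51). Endothelial-like cells (44 and 15) were too few. Every class held UMIs of Krt8 and Krt18, keratins that mark the tumor-like clusters. Their summed level, as a percentage of that in tumor-like cells of the same library, was 22.97% and 11.5% in macrophage or monocyte-like cells, 43.4% and 26.1% in neutrophil-like, 31.8% and 10.9% in DC-like, 35.7% and 16.1% in T or NK-like and 36.8% and 26.6% in CAF-like cells. It was 56.5% and 7.63% in osteoclast-like and 78.7% and 40.2% in myogenic-like cells, the largest differences between the libraries in percentage points.

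T or NK-like and DC-like cells stood at the top of the order for most of the 10 genes and CAF-like cells at the bottom. By the mean of the log2 CPM over both libraries, T or NK-like cells were first for 5 genes and DC-like cells for 3, and CAF-like cells were last for 7. The shares of all genes for which these classes were first or last are not given, so these counts have no background beside them. For the 3 genes led by DC-like cells, Tap1, Tapbp and Psmb9, the range of their values overlapped that of the next class. H2-K1 was at 2333 and 2121 CPM in T or NK-like cells, 1430.4 and 1484 in DC-like, 1276 and 1383 in tumor-like, 1071 and 1101 in macrophage or monocyte-like and 685 and 691.4 in CAF-like cells. The ranges of the values of both libraries did not overlap between the first 4 of these, which is what apart means in this order, although the counting intervals of DC-like cells overlapped those of tumor-like cells in both libraries. Below the macrophage or monocyte-like cells, the ranges of neighbors in the order overlapped. H2-D1 was at 3252 and 2988 CPM in T or NK-like, 2306 and 2413 in DC-like, 1957 and 2030 in macrophage or monocyte-like, 1824 and 2002 in tumor-like and 929.4 and 838.7 in CAF-like cells. Macrophage or monocyte-like and tumor-like cells did not lie apart for H2-D1. For B2m no class lay apart from the next in the order, from 2168 and 1910 CPM in T or NK-like to 1050 and 781.4 in CAF-like cells.

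**Figure D3:**
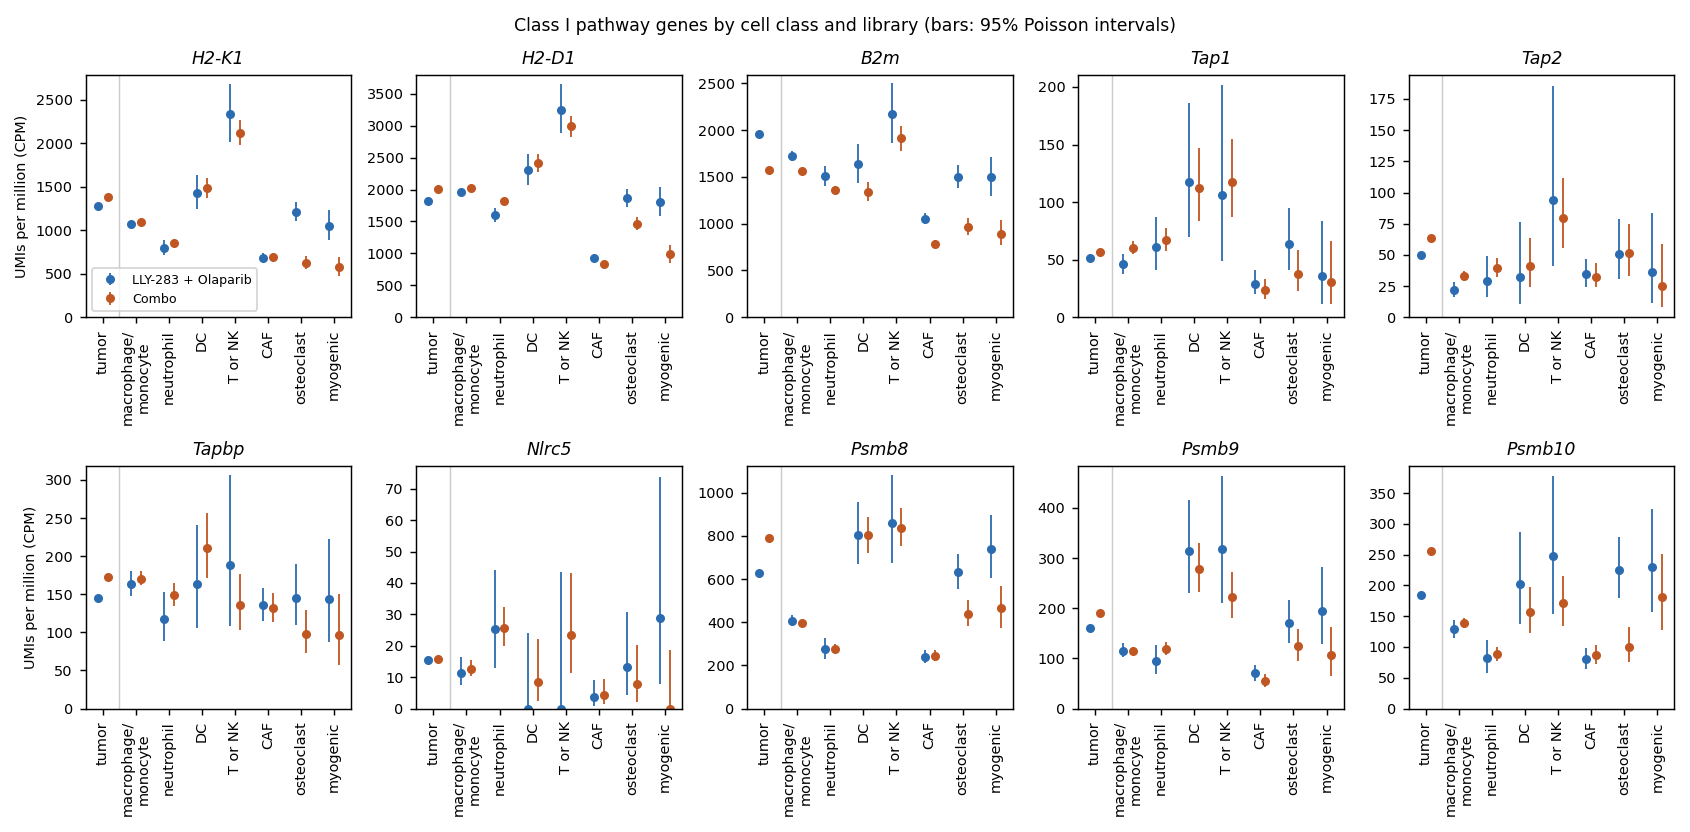
The CPM of the 10 genes is plotted on axes from 0 for the 8 classes, with 1 point per library and bars for the 95% interval from counting. T or NK-like and DC-like cells lie high for H2-K1, H2-D1, Tap1, Psmb8 and Psmb9, and CAF-like cells lie low for the same genes.

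A fold of 2 against tumor-like cells in the same direction in both libraries was passed upward in 1 case over the 7 classes. This was Tap1 in T or NK-like cells, at 106.0 and 117.5 CPM or 2.16-fold and 2.10-fold with 0.5 UMIs added to each count, where 8.56% of genes passed it upward and 8.43% downward. The first of these levels rests on 9 UMIs, and its interval of 48.5 to 201.3 CPM holds the tumor-like level. Downward it was passed by 4 genes in CAF-like cells, where 6.84% of genes passed it and 11.4% passed upward, and by 2 in neutrophil-like cells, where 24.9% did and 11.8% passed upward. In CAF-like cells these were Nlrc5, Psmb8, Psmb9 and Psmb10, and all 10 genes were lower than in tumor-like cells in both libraries, by a median of 1.91-fold and 2.39-fold. The share of all genes that were lower by any amount in both libraries is not given, so the count of 10 has no background beside it. In neutrophil-like cells, Psmb8 was 2.27-fold and 2.86-fold lower than in tumor-like cells and Psmb10 2.23-fold and 2.90-fold. No gene passed in macrophage or monocyte-like cells (15.9% of genes upward and 15% downward), DC-like cells (8.79% and 6.96%), osteoclast-like cells (7.57% and 6.02%) or myogenic-like cells (3.33% and 3.16%). With the keratin ratio taken as a share of tumor RNA and taken off, 20 cases were lower, 9 of them in CAF-like cells, and 2 higher. The shares of all genes after this subtraction are not given, so these counts have no background beside them.

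Single genes departed from the common order. By the mean over both libraries, Nlrc5 was highest in neutrophil-like cells, at 25.2 and 25.6 CPM, the first from 12 UMIs, although these cells were below tumor-like cells for Psmb8. In the LLY-283 + Olaparib library alone, myogenic-like cells were higher, at 28.8 CPM from 4 UMIs. In DC-like and T or NK-like cells of the LLY-283 + Olaparib library Nlrc5 had 0 UMIs, and 3 UMIs, the limit taken for a count of 0, would be 19.6 and 35.3 CPM, so that a difference was not detectable at this depth. Tap2 was last by the same mean in macrophage or monocyte-like cells, at 21.7 and 32.7 CPM against 50.3 and 63.3 in tumor-like cells, although myogenic-like and CAF-like cells were lower in the Combo library, at 25.3 and 32.6 CPM. By the same mean Psmb10 had its first place in tumor-like cells, at 184.9 and 255.1 CPM. Their range overlapped that of T or NK-like cells at 247.4 and 171.5 CPM. In the LLY-283 + Olaparib library alone, T or NK-like cells were higher than tumor-like cells. So were myogenic-like, osteoclast-like and DC-like cells there, at 230.1, 225.2 and 202.5 CPM. Over the 16 points of class and library, the Pearson correlation of a gene with the mean of the other 9 was 0.91 for H2-D1, 0.87 for H2-K1 and 0.82 for B2m and lowest for Nlrc5, at -0.03. These points share libraries and depth, and the values are a description.

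Between the libraries, B2m was lower in the Combo library in 8 of 8 classes, with log2 ratios from -0.74 to -0.15 and an interval below 0 in 7. T or NK-like cells, at 2168 and 1910 CPM, were the class whose interval held 0. By median UMIs per cell the Combo cells were deeper in every class but the myogenic-like, which had 1392 and 1194. Macrophage or monocyte-like cells had 1918 and 10448.5, and CAF-like cells 3885.5 and 20630. Depth was not matched here and its part was not tested, and the share of all genes lower in every class is not given. With the keratin ratio taken off, B2m was at 1656 and 1558 CPM in macrophage or monocyte-like cells and 2284 and 1974 in T or NK-like cells. The direction turned in neutrophil-like cells, at 1159 and 1286 CPM, and in osteoclast-like cells, at 907.9 and 916.9, and myogenic-like cells gave a value below 0. The keratin level was thus lower in the Combo library in all of these classes, as B2m was before the subtraction, and the part of tumor RNA was not tested further. The number of B2m UMIs for every 100 of the heavy chains was 57.0 and 49.8 in macrophage or monocyte-like, 62.8 and 50.9 in neutrophil-like, 43.7 and 34.4 in DC-like and 65.0 and 51.1 in CAF-like cells. It was 38.8 and 37.4 in T or NK-like cells, 48.8 and 46.2 in osteoclast-like cells and 52.4 and 57.1 in myogenic-like cells.

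In macrophage or monocyte-like cells, 2 of the 10 genes passed a fold of 1.3, where 14.8% of genes passed it upward and 7.62% downward. These were Tap1, at 45.9 and 60.5 CPM with a log2 ratio of 0.40 [0.10 to 0.71], and Tap2, with a log2 ratio of 0.58 [0.16 to 1.04]. Both transporter chains were higher in the Combo library there, and Psmb8, at 406 and 397.3 CPM, was not. In neutrophil-like cells 0 of 9 genes with at least 100 UMIs passed, where 31.2% and 25.2% did. The Combo cells of this class were in part another cluster, led by Cxcr2 and Hdc, with 6 and 760 cells. In CAF-like cells B2m alone passed, with a log2 ratio of -0.43 [-0.55 to -0.31], where 12.8% and 8.05% did.

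The small classes gave few values. In DC-like cells 1 of 7 genes passed, Psmb10 downward at a log2 ratio of -0.38 [-0.99 to 0.29], where 27% of genes passed upward and 25.1% downward. In T or NK-like cells 1 of 5 passed, Psmb9 downward at -0.53 [-1.14 to 0.16], where 16.9% and 18.7% did. Both intervals held 0. In osteoclast-like cells 6 of 7 genes passed downward, where 19.5% of genes passed upward and 22.8% downward, and in myogenic-like cells 4 of 4, where 15.1% and 20.5% did. The keratin level, lower in the Combo library in all 7 classes, differed the most in percentage points of the tumor-like level in osteoclast-like and myogenic-like cells. With the keratin ratio taken off, H2-K1 was at 1126 and 563.9 CPM in osteoclast-like and at 214.3 and 41.1 CPM in myogenic-like cells. B2m turned in osteoclast-like cells and gave a value below 0 in myogenic-like cells, as given above. The part of tumor RNA was not tested further.

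The immunoproteasome was set against the constitutive subunits Psmb5, Psmb6 and Psmb7, which Psmb8, Psmb9 and Psmb10 replace in that order. The induced subunits made up 60.0% [59.8 to 60.2] of the UMIs of all 6 genes in tumor-like cells of the LLY-283 + Olaparib library and 62.5% [62.3 to 62.7] in the Combo library. The pairs differed in size. Psmb10 made up 55.3% and 63.0% of its pair with Psmb7, the widest difference, and Psmb8 made up 72.9% and 73.9% of its pair with Psmb5, with intervals apart as well. Psmb9 made up 37.6% and 37.9% of its pair with Psmb6, with intervals that overlapped. Psmb5 and Psmb6 had log2 ratios of 0.26 and 0.23 between the libraries, close to those of Psmb8 and Psmb9, and Psmb7 had 149.4 and 149.6 CPM.

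Across classes the induced share was highest in DC-like cells, at 74.5% and 73.9%, and in T or NK-like cells, at 75.2% and 71.0%. Macrophage or monocyte-like cells had 56.0% and 58.0%, neutrophil-like 59.5% and 65.7%, and CAF-like cells 49.8% and 48.3%. The share of DC-like cells was above that of tumor-like cells in both libraries and the share of CAF-like cells below it, with intervals apart. With the keratin ratio taken off, the share in CAF-like cells was 17.0% and 21.1%. Osteoclast-like cells had 59.3% and 46.4% and myogenic-like cells 57.0% and 49.7%.

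**Figure D4:**
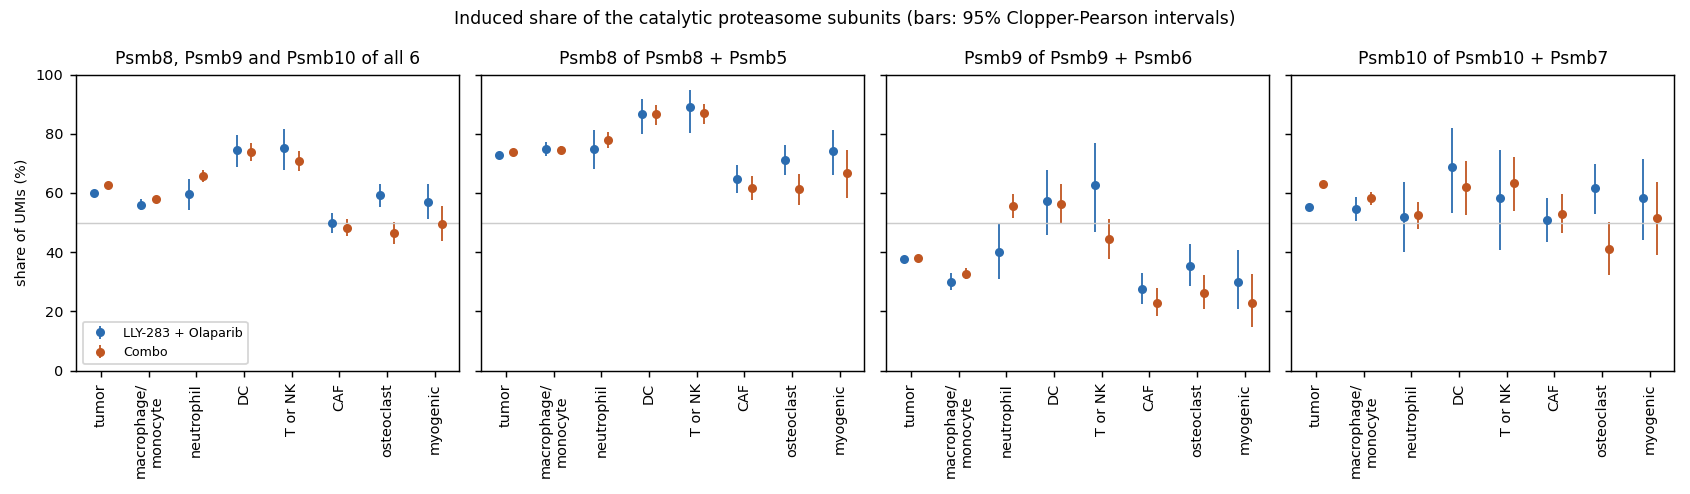
The induced subunits Psmb8, Psmb9 and Psmb10 are plotted as a percentage of the UMIs of these and the constitutive subunits, by class and library, for all 3 and for each pair, with exact 95% intervals. For all 3, DC-like and T or NK-like cells lie above 70%, tumor-like cells at 60.0% and 62.5%, and CAF-like cells at 49.8% and 48.3%.

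The genes also varied with interferon-stimulated genes within the tumor-like cells of each library. Cells were thinned to 5000 UMIs and grouped by their UMIs of a list of 16 type I interferon-stimulated genes, none of them among the 10. In the LLY-283 + Olaparib library 2379 cells had none and 1066 had 5 or more, and in the Combo library 624 and 275. All 10 genes were higher in the cells with 5 or more in both libraries, although for Tapbp in the Combo library the intervals overlapped, and with cells thinned to 2000 UMIs it was lower there, at 180.6 and 159.1 CPM. The share of all genes that were higher in such cells is not given here, so this count has no background beside it. Before thinning, the median depth of the cells with none and with 5 or more was 10154 and 11079.5 UMIs in the first library and 51731.5 and 49513 in the second.

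Between these groups the transporter genes and Psmb10 differed by more than the heavy chains and B2m. Tap1 was at 43.8 and 81.6 CPM in cells with none and with 5 or more in the LLY-283 + Olaparib library, 1.86-fold higher, and at 58.3 and 88.7 in the Combo library, 1.52-fold higher. Psmb10 was at 150.7 and 260.0 CPM, 1.73-fold higher, and at 225 and 341.1 CPM, 1.52-fold higher. Tap2 was 1.36-fold and 1.87-fold higher. H2-K1 was 1.23-fold and 1.31-fold higher and B2m 1.11-fold and 1.29-fold. B2m was at 1927 CPM in the LLY-283 + Olaparib library and 1644 in the Combo library in cells with none, and at 2143 and 2124 in cells with 5 or more. For Tap1, Tap2, Psmb10, H2-K1 and B2m the counting intervals of the groups lay apart in both libraries. Nlrc5, 1.32-fold and 1.496-fold higher, had intervals that overlapped in both. With a list of interferon-gamma-induced GTPases in place of the first, Psmb10 was 2.45-fold and 1.91-fold higher. All 10 genes were higher again, also without a share over all genes beside this count. These groups are of cells within 1 library, and cells are not replicates.

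**Figure D5:**
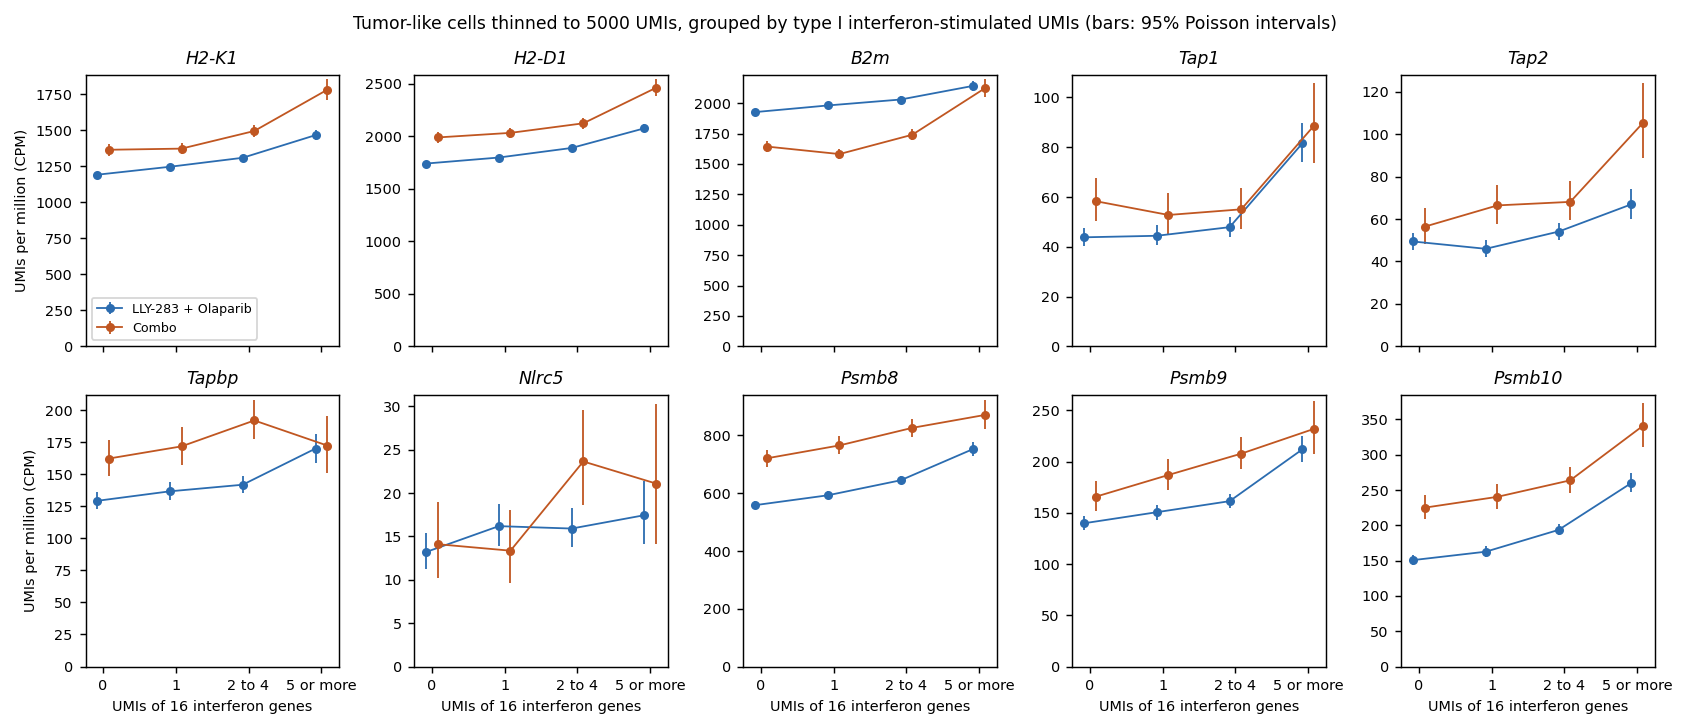
The CPM of each gene is plotted for tumor-like cells with 0, 1, 2 to 4 and 5 or more UMIs of the type I interferon list at 5000 UMIs per cell, for both libraries, with bars for the 95% interval from counting. All 10 genes are higher at 5 or more than at 0 in both libraries, with Tap1 at 81.6 and 88.7 CPM against 43.8 and 58.3.

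Other genes of the pathway and its regulators were taken from fixed lists. In tumor-like cells 7 of 8 interferon-gamma-induced GTPases tested were past a fold of 1.3 upward, where 5.85% of all genes were past it upward and 2.41% downward, with a median log2 ratio of 0.70 against 0.06 over all genes. The same background holds for the lists that follow. Gbp2 had 135.6 and 243.1 CPM, Gbp4 12.3 and 26.1, and Gbp5 5.92 and 19.1. The regulators of class I genes past it included Irf1 and Rfx5. Irf1, a transcription factor induced by interferon-gamma, had 37.8 and 75.2 CPM, a log2 ratio of 0.99, while Rfx5 had a log2 ratio of 0.43. Summed over all tumor-like cells, Irf1 and these 3 GTPases thus had larger log2 ratios than any of the 10 class I genes. The ratios of the genes of these lists are not given by depth or within clusters.

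Of the type I interferon-stimulated genes 2 of 14 tested were past the fold, Cmpk2 and Ifit3b, while Irf7 had a log2 ratio of -0.36. Among the loading chaperones and peptide-trimming genes, 1 of 8 was past it, Tapbpl, with a log2 ratio of 0.71, and calreticulin (Calr) had a log2 ratio of -0.03. Of 11 non-classical class I genes 1 was past it, H2-Q10, whose reads can be shared with near-identical copies. The proteasome activator genes Psme1 and Psme2 had log2 ratios of 0.21 and 0.26, and none of the 3 activator genes and of the 3 constitutive subunits was past the fold. RNA of immune cells was present at a low level in tumor-like cells. Of 7 immune genes tested, such as Lyz2 and S100a8, 6 were past the fold upward there, and the levels of the immune genes in tumor-like cells ranged from 0.200% to 0.617% of those in the class where each was highest in the LLY-283 + Olaparib library and from 0.238% to 0.819% in the Combo library. Its part in the ratios was not tested.

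The genes outside the 10 whose levels over the 16 points of class and library were most like the mean of the 10 were Pkp3 (Pearson correlation 0.88), Zmat2 (0.85), Frg1 (0.85), Fau (0.84) and Sart3 (0.83), among 9996 genes. The points share libraries and depth, and these values describe likeness of level alone.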

How the data were processed

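The authors deposited a matrix of raw UMI counts per gene and cell for each library, made with Cell Ranger on mm10 and not normalized. Cells were kept if they had 200 genes or more and less than 20% mitochondrial UMIs. Scrublet scores (scanpy 1.11.5) were ranked and the expected number of doublets, at a rate of 0.8% per 1000 cells, was removed, because the automatic threshold called 0 cells. This took 2055 and 284 cells. Counts were scaled to 10000 per cell, and 2000 variable genes, without 289 MHC and interferon genes, 30 principal components and 20 neighbors gave 22 Leiden clusters (leidenalg 0.10.2) at resolution 1.3. Clusters were named by the class whose markers were on average the most raised in them. Tumor-like clusters were those without such a name and with keratins over 1.5 times the median of the named clusters. They could not hold more markers of another class than of tumor among their 10 leading genes, nor be shallow without a tumor marker there. The 3 clusters that stayed unnamed passed the keratin limit and failed 1 of these other rules. They held 12.3% and 18.9% of the clustered cells of the LLY-283 + Olaparib and Combo libraries. UMIs were summed per class and library. CPM have exact Poisson intervals and shares exact Clopper-Pearson intervals, at 95%. Genes needed 1000 UMIs over both libraries in tumor-like and 100 in other classes for the library comparison. All 10 genes are named, with at most 4 genes of each other list by size of ratio or level and the 5 most alike. Genes, lists and markers were chosen with earlier results of these data known. In simulated UMI sums of the tumor-like class, 50 of 50 genes changed by 1.5 times were called and 0 of 9317 unchanged genes. This simulation holds counting error only and no spread between mice. It has no single cells, so it cannot show how the call behaves where the libraries differ in depth per cell or in clusters. Python 3.11.15, numpy 2.4.6 and scipy 1.17.1 were used. Of the authors' other experiments nothing was used here. The count over the list of regulators is not reported here.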

Additional observations from a re-analysis of the deposited data

How the results depend on the processing

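No paired analysis was possible because each group had 1 library, and for the same reason no library could be left out. Over 14 alternatives the log2 ratio in tumor-like cells kept its direction in all 14 for 8 of the 10 genes. The narrower ranges of depth were not among these alternatives. Within cells of 10000 to 20000 UMIs, Psmb8, Psmb9 and Psmb10, which are among the 8, were lower in the Combo library, at -0.13, -0.27 and -0.28. B2m ranged from -0.37 to 0.06 and turned in cells of 10000 to 50000 UMIs, and Nlrc5 from -0.07 to 0.27. Alternatives on depth, cluster weight, the cluster led by Il24 and tumor RNA were chosen after seeing the data. The number of genes past a fold of 1.3 upward, 1 as reported, was 0 without the cluster led by Il24, 0 with equal cluster weights, 0 at a fold of 1.5 and 3 in cells of 10000 to 50000 UMIs. The induced share of proteasome UMIs in the Combo library was 60.7% without that cluster, 65.5% in cells of 10000 to 50000 UMIs, 61.7% with equal cluster weights, 63.1% as a mean over cells, 62.9% with no mitochondrial limit and 62.8% at resolution 0.8. In the LLY-283 + Olaparib library it was 59.6% at that depth, 60.4% with equal weights, 60.5% as a mean over cells and 60.3% with the unnamed keratin-high cluster added. Cases at least 2-fold lower than in tumor-like cells, 6 as reported, were 20 with tumor RNA taken off, 10 as a mean over cells, 3 with 50 principal components, 3 at resolution 0.8, and 1 each with cells assigned one by one, doublets kept or no mitochondrial limit. Cases higher, 1 as reported, were 2 with tumor RNA taken off and 0 with doublets kept or at resolution 0.8. The neutrophil-like class was missing with no mitochondrial limit and the DC-like class at resolution 0.8, so these counts cover fewer classes there. The shares of all genes under these settings are not given. Genes with a higher share of cells, 4 at 1000 UMIs, were 2 at 500 and 8 without thinning, where 0 were lower. Except for these constructions, the cause of a change was not tested.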

Other observations

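Of the 3 clusters that took no name, 2 stood apart from the tumor-like clusters in the levels of several of the 10 genes. The third, led by Mir6236 and Gm42418, was below all 9 tumor-like clusters in both libraries for Nlrc5 alone. Its Nlrc5 was at 10.2 and 6.32 CPM, against lowest tumor-like values of 10.9 and 11.6. All 3 unnamed clusters had keratins over the limit used for tumor-like clusters. The cluster led by Aspn and Mgp, with 847 and 331 cells of the LLY-283 + Olaparib and Combo libraries, was above all 9 tumor-like clusters in both libraries for 6 genes. H2-K1 was at 1846 and 1901 CPM there, H2-D1 at 2812 and 2836, B2m at 2833 and 2440, Tap2 at 72.2 and 80.0, Tapbp at 238.4 and 227.3 and Nlrc5 at 27.8 and 21.9. Some margins were small, such as that of Tap2 in the Combo library, where the cluster led by Il24 had 76.6 CPM. The share of all genes above all 9 tumor-like clusters is not given, so the count of 6 has no background beside it. The cluster led by Gm26917 and Gm26724, with 398 and 210 cells, was shallow, its median cell holding 0.167 of the median UMIs of its own library, and had Lars2 and the mitochondrial mt-Rnr1 among its 10 leading genes. H2-D1 was at 3735 and 2820 CPM there and Tapbp at 390.8 and 369.9, above all 9 tumor-like clusters in both libraries. Nlrc5 was at 68.0 and 129.1 CPM and Tap1 at 144.4 and 126.6. The induced subunit Psmb8, at 328 and 345 CPM, was below all 9. The part of its depth and RNA quality in these levels was not tested.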
